A study of Homo sapiens with 24 samples.

Results

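MT-ATP8 and MT-ATP6 are 2 of the 37 transcripts in the deposited table of human mitochondrial RNA, and their rows make up 888 of its 15416 positions. Members were taken by gene name alone, with every position of both reading frames kept. Both proteins are subunits of the ATP synthase, complex V of oxidative phosphorylation, which makes ATP from the proton gradient across the inner mitochondrial membrane. Their reading frames lie on a single mRNA, and the end of the MT-ATP8 frame overlaps the start of the MT-ATP6 frame in another register.

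The 24 libraries came from 4 human lines, each as 3 plates at 2 dNTP levels. The lines were an MRM1 knock-out, an MRM2 knock-out, an MRM3 knock-out and the parental HEK293T Flp-In T-REx line, an embryonic kidney line made for inserting transgenes. MRM1, MRM2 and MRM3 are 2′-O-methyltransferases, each assigned to a single nucleotide of the 16S mitochondrial rRNA. RNA of a mitochondria-enriched fraction was fragmented at alkaline pH and ligated to a 3′ adaptor, and the ligated RNA of each plate was divided between reverse transcription at 2 µM and at 500 µM dNTPs. A 2′-O-methylated ribose resists alkaline cleavage, and it slows reverse transcriptase when dNTPs are scarce, so that cDNAs end next to it more often at 2 µM.

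The knock-outs are limited as models in ways that the design does not separate from the deleted gene. The MRM2 knock-out was a zinc-finger nuclease clone kept in medium with uridine and additional serum. The MRM1 and MRM3 knock-outs were each provided by a named person and their making is not described with that of the MRM2 knock-out, and the medium of the profiled plates was not stated for each line. Plates are of a single line each, so a p-value between lines measures the spread between plates, and origin or medium cannot be told apart from the knock-out.

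Human mitochondrial DNA is transcribed into long precursors, and most mRNAs are released where tRNAs are cut out from between them. The MT-ATP8/MT-ATP6 mRNA begins after MT-TK, the lysine tRNA, and no tRNA lies between it and MT-CO3, which encodes a subunit of cytochrome c oxidase (complex IV). In GRCh38, MT-ATP8 occupied chrM:8366-8572 (207 nt) and MT-ATP6 chrM:8527-9207 (681 nt), both on the forward strand and without introns. The overlap was chrM:8527-8572 (46 nt), which left 161 nt of MT-ATP8 and 635 nt of MT-ATP6 outside it, and the frames together spanned 842 nt. MT-TK lay at chrM:8295-8364, so nucleotide 8365 belonged to neither MT-TK nor MT-ATP8. MT-CO3 (chrM:9207-9990) shared its first nucleotide with the last of MT-ATP6.

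The overlap and both junctions are printed because the read ends and coverage below are counted at these places. Sequences are those of the GRCh38 mitochondrial chromosome, 5′ to 3′ on the coding strand, with T for U. Capitals mark the MT-ATP6 start codon and the MT-ATP8 stop codon in the overlap, the MT-ATP8 start codon after MT-TK, and the joined stop and start codons of MT-ATP6 and MT-CO3.
MT-ATP8/MT-ATP6 overlap, chrM:8527-8572: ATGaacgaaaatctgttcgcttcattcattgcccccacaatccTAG
MT-TK/MT-ATP8 junction, chrM:8354-8383: ctttacagtgaaATGccccaactaaatact
MT-ATP6/MT-CO3 junction, chrM:9190-9219: ctgcacgacaacacaTAATGacccaccaat

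Further windows are printed around nucleotides with relatively more cDNA ends at 2 µM than at 500 µM dNTPs, with the scored nucleotide in capitals. The first 5 had the highest mean score, a ratio of the stops at both dNTP levels, in parental cells. A8566, inside the overlap, and A8401 and A8402, in MT-ATP8, were chosen after their values were seen. All 8 scored nucleotides are adenosines.
A9156 (MT-ATP6), chrM:9146-9166: ccttaatccaAgcctacgttt
A8925 (MT-ATP6), chrM:8915-8935: cacaaggcacAcctacacccc
A8827 (MT-ATP6), chrM:8817-8837: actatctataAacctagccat
A9135 (MT-ATP6), chrM:9125-9145: ctatcctagaAatcgctgtcg
A8892 (MT-ATP6), chrM:8882-8902: ctaagattaaAaatgccctag
A8566 (MT-ATP6), chrM:8556-8576: tgcccccacaAtcctaggcct
A8401 (MT-ATP8), chrM:8391-8411: ggcccaccatAattaccccca
A8402 (MT-ATP8), chrM:8392-8412: gcccaccataAttacccccat

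The libraries at 2 µM held 483960 to 4048537 reads over all transcripts and those at 500 µM held 162673 to 807322. Groups followed the sample titles, since the genotype field named another line than the title in 18 of the 24 samples. The deposited cleavage protection score, which is high where alkaline cleavage is low, separated the lines as the titles do. At G2815 of the 16S rRNA it was 0 in every MRM1 knock-out library and 0.390 to 0.632 in the others, and at G3040 it was 0.00548 to 0.155 in the MRM3 knock-out and 0.780 to 0.929 in the others. At U3039 it was 0 in the MRM2 and MRM3 knock-outs, 0.238 to 0.283 in the MRM1 knock-out and 0.256 to 0.372 in parental cells. The table counts a fragment for a reading frame when it lies wholly inside it. A fragment that spans the whole overlap and reaches beyond it on both sides is therefore counted for neither gene, and a fragment inside the overlap is counted for both. Such shared fragments made up at most 14.3% of MT-ATP8 reads and 1.22% of MT-ATP6 reads. Their number, counted from the rows of each gene, was equal in 13 of the 24 libraries and differed by at most 6 reads.

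MT-ATP6 and MT-ATP8 reads were more abundant in MRM3 knock-out cells than in parental cells at 500 µM dNTPs, and neither gene passed the test in the MRM1 or MRM2 knock-out. MT-ATP8 had 225, 265 and 418 reads in the MRM3 knock-out plates, against 316, 261 and 238 in parental plates. MT-ATP6 had 3504, 4488 and 10532 reads in the MRM3 knock-out plates, against 6573, 5213 and 4221 in parental plates. These raw counts overlapped between the lines, and the libraries differed in depth.

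Divided by library depth and given as RPM, MT-ATP8 was at 978, 1033 and 860 in the MRM3 knock-out, against 391, 432 and 388 in parental cells. MT-ATP6 had 15233, 17503 and 21678 RPM in the MRM3 knock-out, against 8142, 8623 and 6886 in parental cells. For both genes each MRM3 knock-out plate was above each parental plate, and 43.2% of all transcripts did not overlap between these lines in RPM. On the TMM scale, in which edgeR sets depths so that most transcripts have no change, MT-ATP8 was at 695, 1274 and 1105 CPM in the MRM3 knock-out and 483, 521 and 493 in parental cells. MT-ATP6 was at 10831, 21575 and 27834 TMM CPM in the MRM3 knock-out and 10049, 10406 and 8741 in parental cells. The groups again did not overlap, as was the case for 51.4% of all transcripts, and the first MRM3 knock-out plate was the lowest of its group for both genes.

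By edgeR's quasi-likelihood test, MT-ATP8 was higher in the MRM3 knock-out than in parental cells by 1.03 on the log2 scale (SE 0.29, adjusted p = 0.00134) and MT-ATP6 by 1.04 (SE 0.32, adjusted p = 0.00322). In this comparison 40.5% of the 37 transcripts passed, 21.6% higher and 18.9% lower. Of the 11 other mRNAs, 6 rose and none fell in the MRM3 knock-out, with a median log2 difference of 0.77. These were 5 of the 7 complex I mRNAs (median 0.99) and MT-CYB, the cytochrome b of complex III (0.91), while none of the 3 complex IV mRNAs passed. The downstream neighbour MT-CO3 differed by 0.67 (adjusted p = 0.0759) and the upstream neighbour MT-TK by -0.61 (adjusted p = 0.061). The median over all transcripts was -0.16, and relative to it MT-ATP8 was higher by 1.2 and MT-ATP6 by 1.21 on the log2 scale. Over 9 settings of scaling and counting these ranged from 0.17 to 1.22 for MT-ATP8 and from 0.14 to 1.22 for MT-ATP6.

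The call for MT-ATP8 in the MRM3 knock-out depended on the scaling and on which libraries entered the fit. Scaled to the 13 mRNAs alone, a setting added after the data were seen, the log2 difference was 0.28 for MT-ATP8 (edgeR adjusted p = 0.0701) and 0.24 for MT-ATP6 (edgeR adjusted p = 0.0166). Fitted on the 6 libraries of these lines alone, it was 0.73 for MT-ATP8 (edgeR adjusted p = 0.118) and 0.70 for MT-ATP6 (edgeR adjusted p = 0.0376). In bulk RNA, fewer mitochondria or cells and less RNA in each cannot be told apart, and these values are shares of the mitochondrial RNA.

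In the MRM2 knock-out MT-ATP8 had 151, 126 and 132 reads at 500 µM, or 778, 657 and 811 RPM, all above the 388 to 432 RPM of parental cells. In RPM 73% of all transcripts did not overlap between these lines. MT-ATP6 had 2099, 1508 and 1321 reads in the MRM2 knock-out, or 10816, 7861 and 8121 RPM, which overlapped the 6886 to 8623 of parental cells. On the TMM scale MT-ATP8 differed by 0.16 (SE 0.29, edgeR adjusted p = 0.752) and MT-ATP6 by -0.55 (SE 0.32, edgeR adjusted p = 0.198). With depth set by total reads, which moved the median over all transcripts to 0.73, against 0.01 with TMM, MT-ATP8 differed by 0.89 (edgeR adjusted p = 0.00212) and MT-ATP6 by 0.18. Relative to the median over all transcripts, MT-ATP8 was 0.13 to 0.34 above it and MT-ATP6 0.37 to 0.56 below it over 9 settings of scaling and counting. In all, 13.5% of the transcripts passed in the MRM2 knock-out on the TMM scale, all of them lower, among them both rRNAs, 1 of 7 complex I mRNAs and 2 of 3 complex IV mRNAs.

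MRM1 knock-out cells had 162, 221 and 110 MT-ATP8 reads at 500 µM, or 396, 450 and 439 RPM, within or just above the parental range. MT-ATP6 had 2155, 3091 and 1867 reads in these cells, or 5262, 6292 and 7447 RPM, against 8142, 8623 and 6886 in parental cells. The log2 differences were -0.16 for MT-ATP8 (SE 0.29, edgeR adjusted p = 0.861) and -0.55 for MT-ATP6 (SE 0.32, edgeR adjusted p = 0.431), and the sign for MT-ATP8 turned to 0.084 with total reads. No transcript passed in this comparison by edgeR (0% of 37), and 2 had an unadjusted p under 0.05.

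Ordered by RPM per kb of reading frame (RPKM) at 500 µM, MT-ATP8 averaged 4625 ± 427 in the MRM3 knock-out, 3617 ± 393 in the MRM2 knock-out, 2068 ± 139 in the MRM1 knock-out and 1951 ± 117 in parental cells (SD, n = 3 each). MT-ATP6 averaged 26634 ± 4800 in the MRM3 knock-out, 13117 ± 2402 in the MRM2 knock-out, 9301 ± 1605 in the MRM1 knock-out and 11576 ± 1317 in parental cells. These values order the lines within a gene and do not compare the 2 genes, since a fragment is counted only when it lies wholly inside its frame. On the TMM scale the MRM3 knock-out was higher than the MRM1 knock-out by 1.19 for MT-ATP8 (edgeR adjusted p = 2.09e-04) and by 1.59 for MT-ATP6 (edgeR adjusted p = 7.17e-06). It was higher than the MRM2 knock-out by 0.87 for MT-ATP8 (edgeR adjusted p = 0.00754) and by 1.59 for MT-ATP6 (edgeR adjusted p = 1.69e-05). The MRM2 knock-out differed from the MRM1 knock-out by 0.32 for MT-ATP8 (edgeR adjusted p = 0.488) and by 0.00 for MT-ATP6 (edgeR adjusted p = 1).

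**Figure D1:**
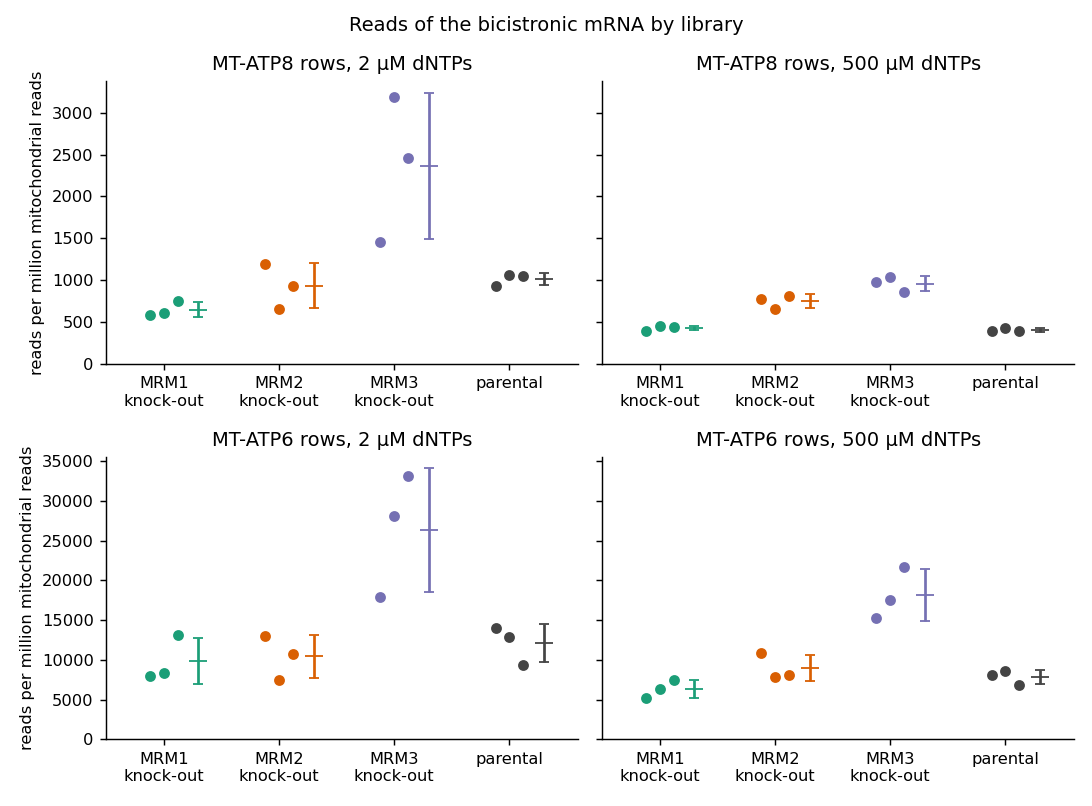
RPM of MT-ATP8 and MT-ATP6 in each library, by line, with 2 µM dNTPs left of 500 µM. Dots are plates and bars show the mean ± SD; at 500 µM every MRM3 knock-out plate is above every parental plate for both genes.

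At 2 µM dNTPs the MRM3 knock-out again had the highest levels, but its differences from parental cells did not pass the test. MT-ATP8 had 1241, 2437 and 5413 reads in the MRM3 knock-out, or 1452, 3184 and 2464 RPM, against 3773, 2658 and 2328 reads, or 932, 1064 and 1051 RPM, in parental cells. MT-ATP6 had 15273, 21469 and 72722 reads in the MRM3 knock-out, or 17870, 28049 and 33096 RPM, against 56592, 32259 and 20802 reads, or 13978, 12909 and 9390 RPM, in parental cells. In RPM each MRM3 knock-out plate was above each parental plate for both genes, and 32.4% of all transcripts did not overlap. On the TMM scale, which the test used, the groups overlapped for both genes, whereas 24.3% of all transcripts did not. MT-ATP8 was at 1016, 3283 and 2965 TMM CPM in the MRM3 knock-out, against 1116, 1157 and 1082 in parental cells, and MT-ATP6 was at 12508, 28926 and 39834 in the MRM3 knock-out, against 16734, 14044 and 9671 in parental cells.

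The log2 differences between MRM3 knock-out and parental cells at 2 µM were 1.11 for MT-ATP8 (SE 0.47, edgeR adjusted p = 0.093) and 1.01 for MT-ATP6 (SE 0.41, edgeR adjusted p = 0.091). They were 1.48 for MT-ATP8 (edgeR adjusted p = 0.00431) and 1.35 for MT-ATP6 (edgeR adjusted p = 0.00925) without the first MRM3 knock-out plate, the lowest of its group for both genes. They were 1.22 and 1.12 for these genes with total reads (edgeR adjusted p = 0.0278 for each). In all, 16.2% of the transcripts passed at 2 µM in the MRM3 knock-out, 8.11% higher, and 3 of the 11 other mRNAs rose, all of complex I. Against the MRM1 knock-out the MRM3 knock-out was higher by 1.89 for MT-ATP8 (edgeR adjusted p = 0.0017) and by 1.45 for MT-ATP6 (edgeR adjusted p = 0.00654).

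In the MRM2 knock-out MT-ATP8 had 1116, 547 and 452 reads and MT-ATP6 12092, 6237 and 5226 reads at 2 µM, and in the MRM1 knock-out MT-ATP8 had 1178, 1074 and 419 reads and MT-ATP6 16244, 14644 and 7401 reads. Relative to parental cells the log2 differences were -0.37 and -0.47 for MT-ATP8 and MT-ATP6 in the MRM2 knock-out (edgeR adjusted p = 0.598 and 0.429), where 18.9% of the transcripts passed. They were -0.78 and -0.44 in the MRM1 knock-out (edgeR adjusted p = 0.6 and 0.625), where none passed (0%).

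The same ligated RNA gave relatively more MT-ATP8 reads at 2 µM than at 500 µM in MRM3 knock-out and parental cells. In parental plates MT-ATP8 had 932, 1064 and 1051 RPM at 2 µM, against 391, 432 and 388 at 500 µM. The log2 difference between dNTP levels was fitted with the plate as a block and TMM set over all 24 libraries, so it is not the ratio of these RPM. It was 0.96 in parental cells (SE 0.25, edgeR adjusted p = 0.00341), where 64.9% of transcripts passed, 35.1% higher and 29.7% lower. In the MRM3 knock-out MT-ATP8 had 1452, 3184 and 2464 RPM at 2 µM, against 978, 1033 and 860 at 500 µM. The fitted log2 difference in this line was 0.57 (SE 0.25, edgeR adjusted p = 0.0478), where 75.7% of transcripts passed, 32.4% higher and 43.2% lower. The call in the MRM3 knock-out was lost without its plate 2 (0.56, edgeR adjusted p = 0.197) or its plate 3 (0.51, edgeR adjusted p = 0.236).

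MT-ATP8 differed by 0.35 between dNTP levels in the MRM1 knock-out (edgeR adjusted p = 0.225) and by 0.35 in the MRM2 knock-out (edgeR adjusted p = 0.249), and 62.2% of the transcripts passed in each line. These were 29.7% higher and 32.4% lower in the MRM1 knock-out, and 32.4% higher and 29.7% lower in the MRM2 knock-out. For MT-ATP6 the log2 differences were 0.38 in the MRM1 knock-out (edgeR adjusted p = 0.0681), 0.27 in the MRM2 knock-out (edgeR adjusted p = 0.187), -0.16 in the MRM3 knock-out (edgeR adjusted p = 0.424) and 0.24 in parental cells (edgeR adjusted p = 0.218). In the MRM1 knock-out, leaving out any of its plates gave log2 differences of 0.79 to 0.96 for MT-ATP8 and 0.80 to 0.98 for MT-ATP6, each past the threshold. The median over all transcripts is not given for these fits, and the part of scaling in them was not tested. This median moved from -0.23 to 0.31 in the MRM1 knock-out when overlap-start reads were left out. Over 8 settings of scaling and counting MT-ATP8 was 0.41 to 0.66 and MT-ATP6 0.58 to 0.69 above the median in this line. The sign for MT-ATP6 in the MRM3 knock-out turned to 0.51 with total reads. Of the 11 other mRNAs, 5 in the MRM1 knock-out, 7 in the MRM2 knock-out, 11 in the MRM3 knock-out and 5 in parental cells were lower at 2 µM, and none was higher. Both rRNAs were lower at 2 µM in each line.

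The median over all transcripts was -0.23, -0.18, -0.25 and -0.12 in the MRM1, MRM2 and MRM3 knock-outs and parental cells. Relative to it, MT-ATP8 was 0.58, 0.53, 0.82 and 1.08 higher at 2 µM in these lines in that order, and it stayed above it under each of 8 settings of scaling and counting. MT-ATP6 was 0.61, 0.45, 0.09 and 0.35 above the median. The difference between dNTP levels did not itself pass a test of difference between any knock-out and parental cells, with interaction terms for MT-ATP8 of -0.61, -0.61 and -0.39 in the MRM1, MRM2 and MRM3 knock-outs (edgeR adjusted p = 0.916, 0.561 and 0.483).

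Fragments of both genes were shorter at 2 µM. Mean fragment length was 46.1 to 49.5 nt for MT-ATP8 at 2 µM, against a median of 126 nt and at most 135 nt over the libraries at 500 µM, and for MT-ATP6 it was 55.8 to 60.9 nt at 2 µM and 120.5 to 146.9 nt at 500 µM. By limma on log2 lengths, the MT-ATP8 differences between 2 µM and 500 µM were -1.35, -1.45, -1.26 and -1.26 in the MRM1, MRM2 and MRM3 knock-outs and parental cells. MT-ATP6 differed by -1.19, -1.34, -1.15 and -1.11 in the same order, and the limma adjusted p of both genes lay between 1.12e-10 and 3.25e-09. All 37 transcripts (100%) were shorter at 2 µM in every line, with medians of -0.84, -0.86, -0.82 and -0.77, so that the 2 genes shortened by more than the median transcript. Apart from 13 mRNAs and 2 rRNAs, the 37 are tRNAs of 59 to 75 nt, which hold only short fragments at either dNTP level. A comparison with the other mRNAs alone is not given here. A short fragment is more easily contained in the 207 nt of MT-ATP8, and the part of this in the higher MT-ATP8 counts at 2 µM was not tested. Between knock-out and parental cells at 500 µM neither gene's length passed the limma test, where 0%, 5.41% and 0% of transcripts passed in the MRM1, MRM2 and MRM3 knock-outs. Without parental plate 3, MT-ATP8 fragments were longer in the MRM2 knock-out by 0.32 and MT-ATP6 fragments by 0.24 (limma adjusted p = 0.0115 for each), in a fit in which 31 of the 37 transcripts passed.

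MT-ATP8 reads were few beside MT-ATP6 reads in every library. At 500 µM there were 7.52, 7.15 and 5.89 MT-ATP8 reads per 100 MT-ATP6 reads in the MRM1 knock-out, 7.19, 8.36 and 9.99 in the MRM2 knock-out and 6.42, 5.90 and 3.97 in the MRM3 knock-out, against 4.81, 5.01 and 5.64 in parental cells. Every MRM1 and MRM2 knock-out plate was above every parental plate. Per kb of reading frame the log2 ratio was -2.16 ± 0.19 in the MRM1 knock-out, -1.85 ± 0.24 in the MRM2 knock-out, -2.51 ± 0.37 in the MRM3 knock-out and -2.56 ± 0.12 in parental cells (SD, n = 3 each). The difference from parental cells was 0.41 in the MRM1 knock-out and 0.72 in the MRM2 knock-out (two-sided exact permutation p = 0.1 for each, the smallest that 3 plates against 3 allow, and 0.2 when adjusted over the 20 exact tests). It was 0.05 in the MRM3 knock-out (exact p = 0.9). At 2 µM these differences were -0.34, 0.06 and 0.05, so the sign in the MRM1 knock-out turned.

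Between dNTP levels the ratio was higher at 2 µM in 9 of 12 plates, by 0.38 on the log2 scale (exact sign-flip permutation p = 0.0122, adjusted p = 0.0488). It was higher in 3 of 3 plates of the MRM3 knock-out (0.73) and of parental cells (0.73), and differed by -0.02 in the MRM1 knock-out and 0.07 in the MRM2 knock-out. Without reads that start in the overlap the difference over the 12 plates was 0.24 (exact p = 0.0952).

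Across the 12 libraries at 500 µM, the TMM log2 levels of the 2 genes had a Pearson r of 0.885, and at 2 µM 0.933. The transcripts most like MT-ATP8 at 500 µM were MT-ND2 (r = 0.983), MT-ND1 (0.978) and MT-ND3 (0.964), all of complex I. The transcripts most like MT-ATP6 were MT-CYB (0.994), MT-ND4 (0.972), of complex I, and MT-CO3 (0.964). The 2 genes themselves were left out of this ranking. These are descriptions over libraries that share lines, depth and fragment length. At 2 µM the same 3 transcripts led among the others for each gene, but MT-ATP6 was more like MT-ATP8 (r = 0.933) than MT-ND1 was (0.926).

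Coverage of both frames was lower in the overlap than outside it at 500 µM, and this contrast was smaller at 2 µM. A counted fragment must lie inside its own frame. Coverage therefore falls by construction towards a border that fragments cross, over about the length of a fragment. The 5′ border of MT-ATP8 differs at 500 µM, where 38.8 to 75.9% of its 5′ ends were at nucleotide 1. In MT-ATP8 rows the mean coverage of the overlap was 98.7 ± 16.9%, 90.6 ± 14.5%, 73.7 ± 1.78% and 78.7 ± 12.6% of the mean coverage outside it at 2 µM in the MRM1, MRM2 and MRM3 knock-outs and parental cells (SD, n = 3 each). At 500 µM it was 34.4 ± 0.866%, 35.2 ± 3.41%, 33.9 ± 3.01% and 39.2 ± 4.39% in the same order. In MT-ATP6 rows it was 32 ± 4.64%, 39.8 ± 6.88%, 31.6 ± 6.12% and 36.6 ± 2.83% at 2 µM, and 17 ± 1.48%, 14.1 ± 0.859%, 17.4 ± 1.74% and 17.7 ± 1.02% at 500 µM. No library at 2 µM overlapped a library at 500 µM for either gene.

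The share was higher at 2 µM than at 500 µM in 12 of 12 plates for each gene, by 1.25 on the log2 scale in MT-ATP8 and 1.07 in MT-ATP6 (exact sign-flip permutation p = 4.88e-04 for each, the smallest that 12 plates allow, adjusted p = 0.00244). Fragments were shorter at 2 µM, as given above, and the part of fragment length in this difference was not tested. Between lines at 500 µM, the MRM1 knock-out was below parental cells without overlap in MT-ATP8 rows (-0.18, exact p = 0.1), and the MRM2 knock-out was so in MT-ATP6 rows (-0.32, exact p = 0.1). The 4 other comparisons of a knock-out with parental cells overlapped, with differences of -0.21 to -0.02. At 2 µM the difference for MT-ATP8 in the MRM1 knock-out was 0.32 and that for MT-ATP6 in the MRM2 knock-out 0.11, the opposite sign.

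**Figure D2:**
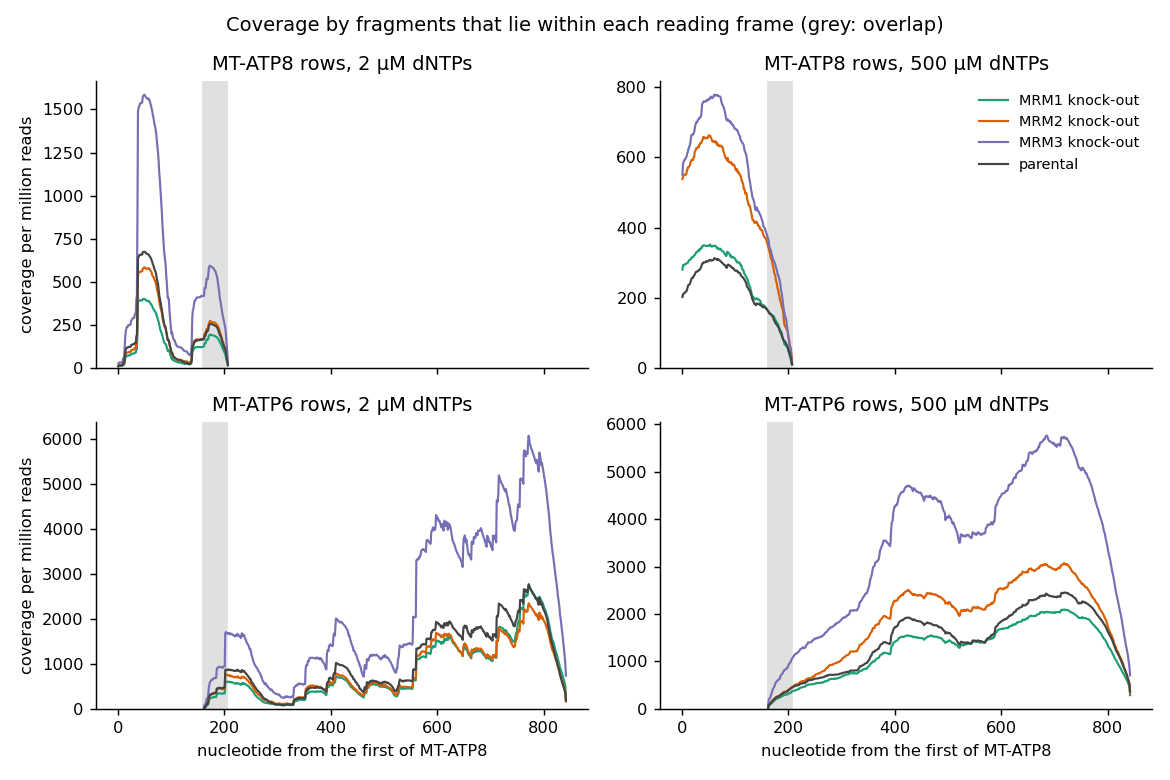
Mean coverage, divided by depth as for RPM, along MT-ATP8 and MT-ATP6, by line, at 2 µM (left) and 500 µM dNTPs (right). The x axis is the distance from the first nucleotide of MT-ATP8 in nt, each line is the mean of 3 plates, and grey marks the 46 nt overlap; in MT-ATP6 rows the overlap had 25.7 to 47.7% of the coverage of the rest at 2 µM and 13.1 to 18.5% at 500 µM.

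**Figure D3:**
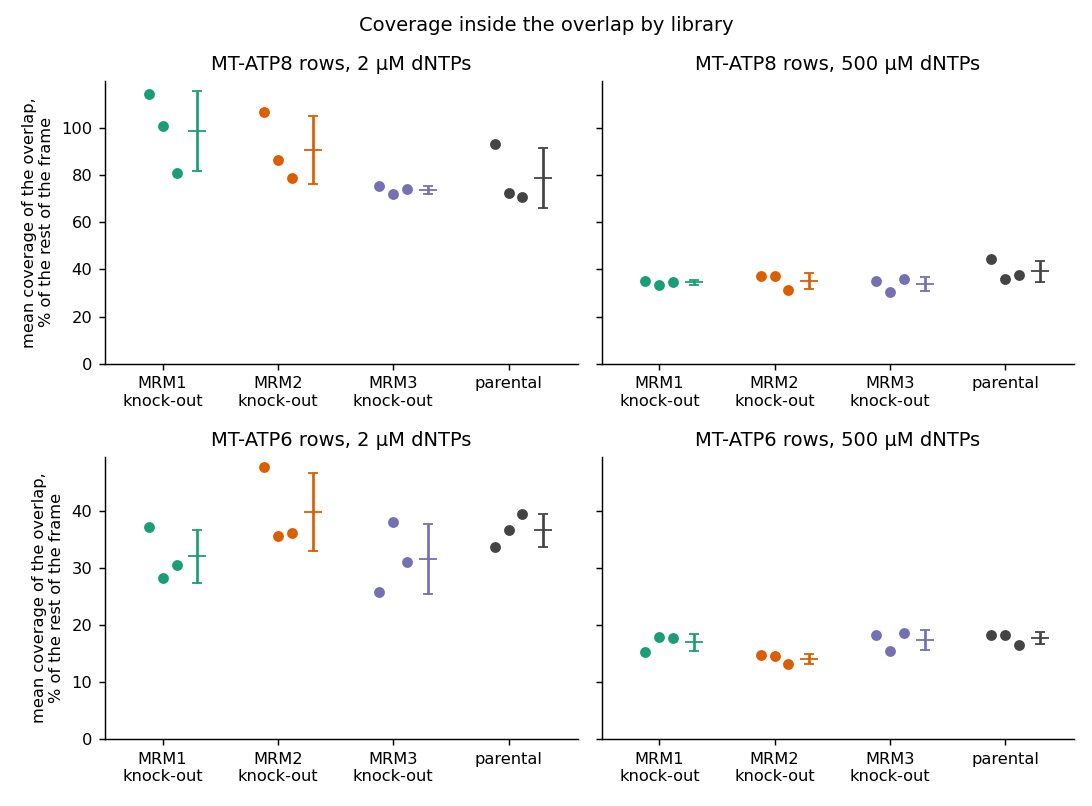
Coverage of the overlap as a percent of the coverage of the rest of each frame, by line, with 2 µM left of 500 µM. Dots are plates and bars show the mean ± SD; MT-ATP8 rows lie at 70.6 to 114.5% at 2 µM and 30.5 to 44.2% at 500 µM.

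The first nucleotide of MT-ATP8 held few of its 5′ ends at 2 µM and more of them than any other position at 500 µM in parental cells. At 2 µM the share was 0.564 to 1.67% over the 12 libraries, lower than at 500 µM in 12 of 12 plates, with a mean difference of -60.2 points (exact sign-flip permutation p = 4.88e-04). This comparison of dNTP levels was added after the data were seen. The first nucleotide's share of MT-ATP8 5′ ends at 500 µM was 75.9, 57.9 and 63.6% in the MRM1 knock-out, 71.5, 71.4 and 72.7% in the MRM2 knock-out and 67.1, 64.2 and 38.8% in the MRM3 knock-out, against 45.3, 44.4 and 60.9% in parental cells. The MRM2 knock-out plates were all above the parental plates, by 21.7 points on average (exact p = 0.1), whereas the MRM1 knock-out (15.6 points, exact p = 0.2) and the MRM3 knock-out (6.47 points, exact p = 0.7) overlapped them. Of the parental 5′ ends at 500 µM, 404 (49.6%) were at nucleotide 1 and 16 (1.96%) at nucleotide 2 of MT-ATP8. A fragment that began at nucleotide 8365, or in MT-TK, is counted in neither gene, so ends just before the frame were not analysed here.

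No like accumulation was found where MT-ATP6 begins inside the mRNA. Its first nucleotide held 0.0131 to 0.0827% of MT-ATP6 5′ ends at 2 µM and 0.0953 to 0.514% at 500 µM, on 1 to 21 reads at 2 µM and 2 to 28 reads at 500 µM. Knock-outs differed from parental cells at 500 µM by -0.062, -0.028 and 0.0076 points in the MRM1, MRM2 and MRM3 knock-outs (exact p = 0.6, 0.8 and 1). The 3 positions with most MT-ATP6 5′ ends in parental cells at 500 µM were U8758 (259 ends, 1.62%), U8954 (192 ends, 1.2%) and A8953 (133 ends, 0.831%), all inside the frame. In MT-CO3, the first nucleotide held 0.0616 to 0.503% of its 5′ ends at 2 µM and 6.46 to 31.1% at 500 µM.

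Fragments that ended on the last nucleotide of MT-ATP6, where MT-CO3 begins, made up 0.88 to 2.92% of its 3′ ends at 2 µM and 3.19 to 4.90% at 500 µM. This was the position with most MT-ATP6 3′ ends in parental cells at 500 µM, with 742 ends (4.64%), followed by the nucleotide before it (296 ends, 1.85%) and C8859 (94 ends, 0.587%). The last nucleotide of MT-ATP8 held 20 of its parental 3′ ends at 500 µM (2.45%). MT-TK, which is cut out upstream, had 85.3 to 95.9% of its 3′ ends at its last nucleotide at 2 µM and 79.7 to 94.4% at 500 µM.

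**Figure D4:**
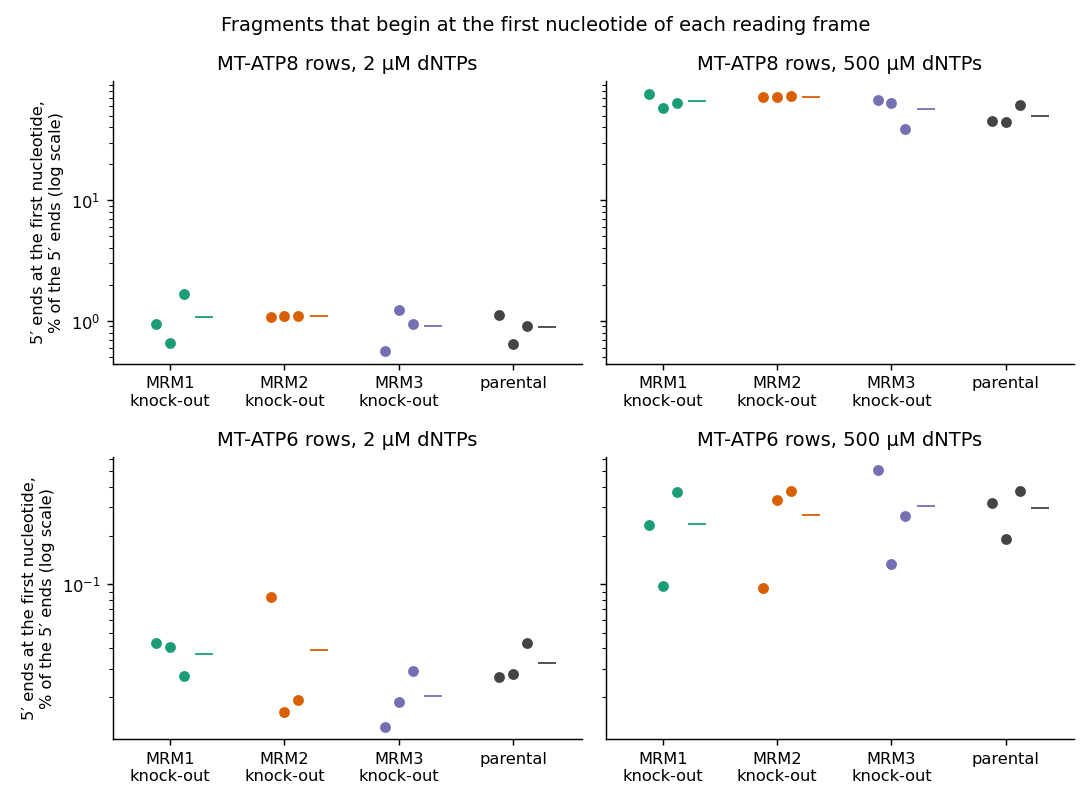
Share of the 5′ ends of MT-ATP8, and of MT-ATP6, at the first nucleotide of the frame, on a log axis in percent, with 2 µM left of 500 µM. Dots are plates and dashes the group mean; MT-ATP8 lies at 0.564 to 1.67% at 2 µM and 38.8 to 75.9% at 500 µM, and MT-ATP6 is below 1% throughout.

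At 2 µM the 5′ ends of MT-ATP8 gathered at a pair of positions inside the frame. In parental cells, 26.1 ± 2.21% of its 5′ ends were at nucleotide 38 at 2 µM, against 1.57 ± 0.729% at 500 µM, and 17.4 ± 1.64% were at nucleotide 37 at 2 µM, against 1.17 ± 0.633% at 500 µM (SD, n = 3). The shares at nucleotide 38 at 2 µM were 27.0 ± 5.36, 23.8 ± 1.66 and 26.0 ± 1.53% in the MRM1, MRM2 and MRM3 knock-outs. These ends are 1 nt downstream of A8402 and A8401, the adenosines of the windows above, and the positions were chosen after their values were seen.

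MT-ATP6 5′ ends were more spread out at 2 µM. In parental cells its 3 leading positions held 4.09 ± 0.034% (after A9076), 3.95 ± 0.637% (after A8925) and 3.27 ± 0.124% (after A8566) of the 5′ ends at 2 µM, against 0.765 ± 0.219%, 0.136 ± 0.0297% and 0.0746 ± 0.0031% at 500 µM. The knock-outs had 3.77 to 3.99%, 4.85 to 4.93% and 2.69 to 3.02% at these positions at 2 µM on average. A8566 lies inside the overlap, shortly before the MT-ATP8 stop codon.

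The RT-stop score of a nucleotide was the stop ratio at 2 µM divided by that at 500 µM on the same plate, where the stop ratio is the number of 5′ ends just downstream, plus 1, over the coverage there, plus 1. A score above 1 means relatively more stops at 2 µM. With coverage of at least 50 in every library, 11971 positions were tested, 714 of them in the 2 genes. They were 71 positions of MT-ATP8 between nucleotides 27 and 97 and 643 of MT-ATP6 between nucleotides 30 and 680.

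High scores were mostly at adenosines. By limma with adjustment over all 11971 positions, 153, 158, 165 and 157 member positions scored above 1 in the MRM1, MRM2 and MRM3 knock-outs and parental cells, where 27.1%, 29%, 28% and 27.7% of all tested positions did. Below 1 were 229, 193, 231 and 224 member positions in that order, beside 26.2%, 19.6%, 25.5% and 30% of all positions. The balance turned under other settings, in parental cells also over all 11971 positions. With edgeR on stop counts 151, 148, 181 and 169 member positions were above 1 and 95, 54, 140 and 144 below it. Over all positions 3053, 2959, 3321 and 3501 were above and 2190, 1499, 2427 and 2880 below. With 0.1 in place of the added 1 there were 145, 167, 143 and 131 member positions above and 123, 124, 113 and 99 below. Over all positions these were 2931, 3196, 2879 and 2783 above and 2429, 2163, 2249 and 2185 below. Of 218 adenosines in the 2 genes, 123, 124, 125 and 122 scored above 1 (56.4%, 56.9%, 57.3% and 56.0%). Of 249 cytidines 11 to 14 did, of 68 guanosines 5 to 9, and of 179 uridines 13 to 17. In parental cells the median log2 score was 1.27 at adenosines, -1.0 at cytidines, -0.60 at guanosines and -0.89 at uridines of the 2 genes. The order of bases was not particular to this mRNA, since over all tested positions 60.3% of adenosines, 9.61% of cytidines, 18.5% of guanosines and 16.9% of uridines scored above 1 in parental cells.

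The 5 positions with the highest mean log2 score in parental cells were all in MT-ATP6 and are given as a description. At A9156 the parental plates scored 113, 25.1 and 102, with stops at 8.07 ± 1.96% of coverage at 2 µM and 0.0582 ± 0.101% at 500 µM. At A8925 they scored 46.2, 38.3 and 42.3, with stops at 35.4 ± 3.52% at 2 µM and 0.738 ± 0.104% at 500 µM. A8827 scored 50.8, 44.5 and 22.0 in parental plates, A9135 scored 22.4, 32.6 and 66.8, and A8892 scored 38.1, 21.6 and 53.3. The stop percent at 2 µM was 5.14 to 14.1% at the 4 positions other than A8925, and their stop percent at 500 µM was 0.0582 to 0.351%. Parental libraries at 500 µM had 0 to 2 stops at A9156 and at A8892 and 0 to 3 at A9135. They had 2 to 7 at A8827 and 7 at A8925. The added 1 therefore sets much of the size and order of these scores.

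Knock-out cells also had stops at these adenosines at 2 µM. A9156 had 8.96, 11.1 and 9.27% in the MRM1, MRM2 and MRM3 knock-outs on average, against 8.07% in parental cells, and A8925 had 42.6, 43.0 and 39.9%, against 35.4%. In the overlap, A8566 had stops at 43.8 ± 1.40, 42.7 ± 2.47 and 43.8 ± 6.60% in the MRM1, MRM2 and MRM3 knock-outs at 2 µM, against 45.6 ± 1.39% in parental cells. Its score was 7.80 to 72.8 over the 9 knock-out plates, a range that held the parental mean of 25.2 ± 1.58. A fragment that read through A8566 and began before the overlap is not counted in MT-ATP6 rows. The stop percents at A8566 can therefore be too high beside those at A8925, which lies deeper in the frame.

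In MT-ATP8, 47.6 ± 2.38, 52.7 ± 4.34 and 54.0 ± 6.31% of the coverage after A8401 was stops at 2 µM in the MRM1, MRM2 and MRM3 knock-outs, against 48.2 ± 2.20% in parental cells. At 500 µM the stop percent there was 0.584, 0.306 and 2.10% in the knock-outs, against 1.66% in parental cells, on 0 to 8 stops per library. After A8402 it was 45.5 ± 4.70, 40.6 ± 3.07 and 41.3 ± 2.30% at 2 µM in the knock-outs, against 42.1 ± 0.826% in parental cells. Fragments that began before MT-ATP8 are left out of this coverage, so the percents at both adenosines can also be too high.

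**Figure D5:**
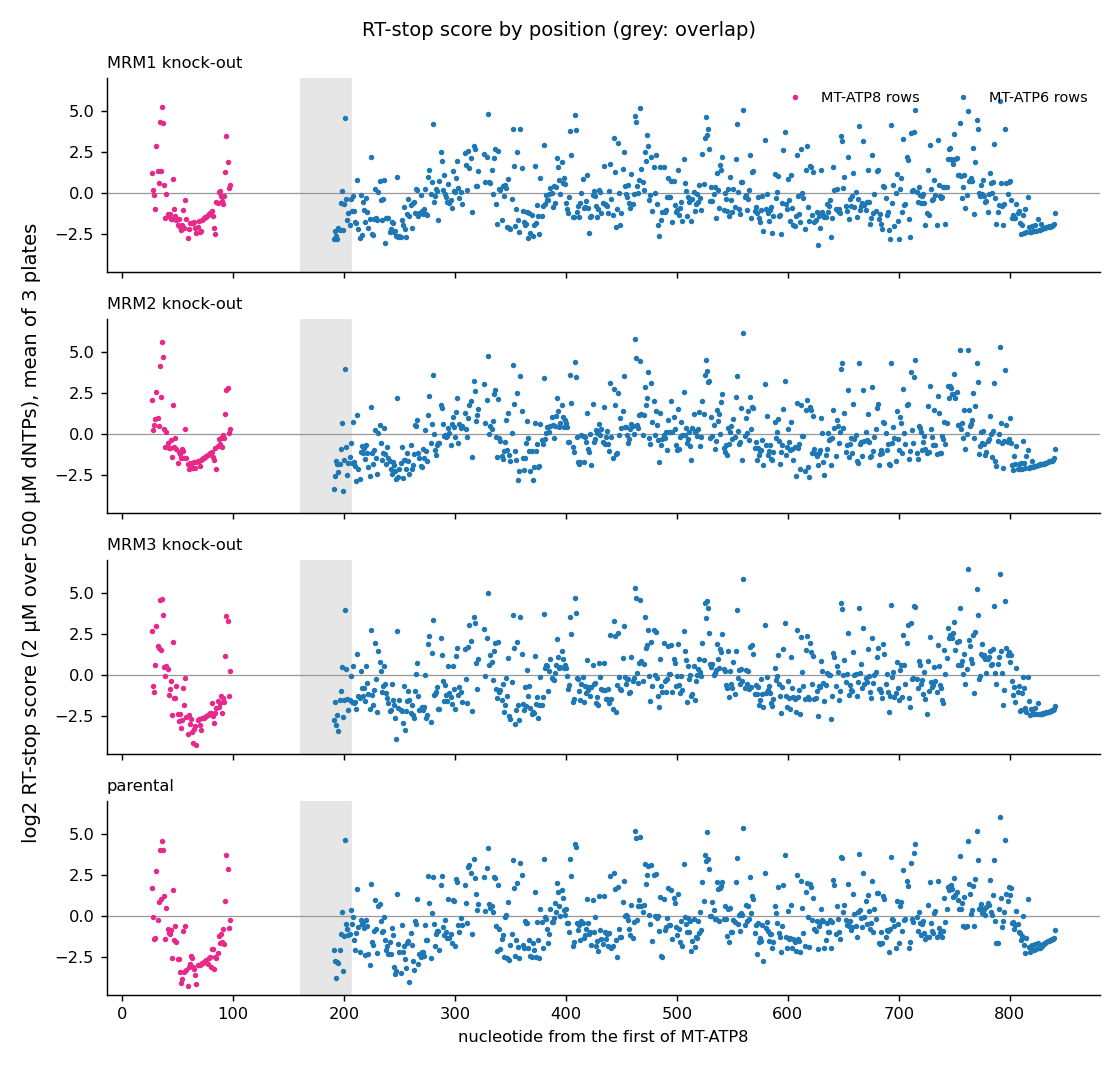
Mean log2 RT-stop score of each tested position of MT-ATP8 and MT-ATP6 in knock-out and parental cells. The x axis is the distance from the first nucleotide of MT-ATP8 in nt for both genes, and grey marks the overlap. Values above 0 mean relatively more stops at 2 µM, and the highest mean in parental cells was 6.05, at A9156.

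Neither gene had a position whose score passed limma's test between any knock-out and parental cells. The count was 0 of 714 in each knock-out, beside 1, 0 and 1 of the 11971 positions in the MRM1, MRM2 and MRM3 knock-outs (0.00835%, 0% and 0.00835%). The test thus called no position in the MRM2 knock-out. Cleavage protection at U3039 of the rRNA was nevertheless 0 there, against 0.256 to 0.372 in parental cells. In the MRM3 knock-out, where protection was lower at U3039 and at G3040, 1 position was called. The test can therefore miss a lost methylation, and the lack of calls does not show that this mRNA was unchanged. The lowest adjusted p among member positions was 0.382, 0.125 and 0.365, and 72, 92 and 30 member positions had an unadjusted limma p under 0.05. These were 10.1%, 12.9% and 4.20% of the member positions, beside 7.76%, 15% and 6.57% of all positions. Median log2 differences over the member positions were 0.07, 0.18 and 0.10, against 0.09, 0.29 and 0.10 over all positions. Scores of the 3 plates did not overlap those of parental cells at 106, 126 and 82 of the 714 positions, beside 15%, 20.2% and 11.8% of all positions.

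With edgeR on stop counts, 29, 29 and 17 member positions had an unadjusted edgeR p under 0.05. These were 4.06%, 4.06% and 2.38% of the member positions, beside 5.80%, 8.01% and 3.86% of all positions. After adjustment 0, 0 and 1 member positions passed, beside 0.184%, 1.03% and 0.184% of all positions. The position was A9127 of MT-ATP6 in the MRM3 knock-out, with an edgeR log2 difference of 2.67 (edgeR adjusted p = 0.0495) and a limma difference of 1.89 (limma adjusted p = 0.389). Its scores were 61.9, 59.9 and 187 in the MRM3 knock-out, against 22.4, 16.1 and 37.7 in parental cells. Stops at 2 µM were 13.7 ± 1.32% in the MRM3 knock-out and 12.7 ± 1.57% in parental cells, and those at 500 µM were 0.103 ± 0.0671% in the MRM3 knock-out and 0.495 ± 0.222% in parental cells.

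The positions with the smallest p among those without overlap were also called by neither test, apart from A9127 by edgeR. In the MRM1 knock-out U8651 scored 2.09, 0.944 and 2.45, against 0.195, 0.219 and 0.341 in parental cells. In the MRM2 knock-out U9164 scored 0.689, 0.651 and 1.28, against 2.67, 4.78 and 3.25 in parental cells, and U8419 of MT-ATP8 scored 0.607, 0.619 and 0.408, against 0.0962, 0.0555 and 0.0637. In the MRM3 knock-out C8397 of MT-ATP8 scored 4.29, 4.79 and 2.06, against 0.615, 1.82 and 0.583 in parental cells. Most of these scores rest on few stops per library, so that the added 1 sets much of their size.

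Depth limited the scores in MT-ATP8 more than in MT-ATP6. Of the tested MT-ATP8 positions, 36.6 to 84.5% had no stop in a given library at 500 µM, whereas 8.09 to 32.8% of MT-ATP6 positions had none. The median log2 score of MT-ATP8 was -1.25, -0.90, -1.79 and -1.96 in the MRM1, MRM2 and MRM3 knock-outs and parental cells, and that of MT-ATP6 was -0.38, -0.21, -0.36 and -0.40. The MT-ATP8 medians depended on the settings: they were -0.61, -0.35, -0.99 and -1.08 over 150 positions at a coverage minimum of 20, and 0.00 in each line with edgeR on stop counts. At its deepest position a library at 500 µM covered MT-ATP8 89 to 300 times and MT-ATP6 487 to 3225 times.

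The cleavage protection score, made from 500 µM libraries, did not reach this mRNA at most depths. No MT-ATP8 position was scored in any of the 12 libraries. MT-ATP6 had 1, 16 and 337 scored positions in the MRM3 knock-out plates and 118, 46 and 3 in parental plates, and none in the MRM1 and MRM2 knock-outs, so no position was scored in all 12 libraries. Over all transcripts, 2257 to 4767 positions were scored per library and 2196 in all 12. A change of cleavage protection along this mRNA in any knock-out was therefore not detectable at this depth.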

How the data were processed

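Each sample is a library of mitochondrial RNA from 1 plate at 1 dNTP level. Per the study's methods, the authors used STAR 2.5.3a to align read pairs to chrM alone (GRCh38.p13) and deposited, for each position of each transcript, whole-number counts of read ends and coverage. They also deposited score columns made from these, the RT-stop ratio and the cleavage protection score, which are fractions of 0 to 1 and of which the RT-stop ratio was recovered from the deposited counts in 21264 of 21264 member values. A check of coverage against read ends at all 15416 positions gave the read ends as 5′ ends of fragments. Reads carry no molecular identifiers, so depth bounds counting error only.

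Reads per transcript were tested with edgeR 4.0.16 (quasi-likelihood, TMM, at least 10 reads in 3 libraries, Benjamini-Hochberg adjustment over 37 transcripts, threshold 0.05), and fragment lengths and log2 RT-stop scores with limma 3.58.1 over all transcripts or positions. Fits took all 12 libraries of a dNTP level, or all 24 with the plate as a block between dNTP levels, a pairing given by the study's methods. Ratios, overlap coverage and first-nucleotide shares were compared by exact permutation tests adjusted over 20 tests. DESeq2 1.42.0 was an alternative. Named items were the 2 genes, their neighbours, the 3 most alike transcripts, the ends and borders of the frames, the 3 positions with most 5′ and 3′ ends, the 5 with the highest parental score, and the 3 non-overlapping positions of smallest p in each knock-out. The genes and lists were chosen with earlier results of these data known. Scripts were tested on simulated data.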

Additional observations from a re-analysis of the deposited data

How the results depend on the processing

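Of 777 alternative values, 671 were counted as unchanged, 27 reversed, 7 lost and 29 gained a call, and 43 moved. Unchanged means the same direction and side of the threshold or, for counts of calls, a count near the main count. In the 15 exact tests of a knock-out against parental cells only a change of sign could show. Their side of the threshold was fixed, since 3 plates against 3 cannot give an exact permutation p under 0.1. No cause of a change was tested. Depth limits MT-ATP8 most.

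In 2 µM libraries, against the 500 µM values of the report, the ratio difference was -0.34 (MRM1 knock-out), the overlap difference 0.32 (MRM1) and 0.20 (MRM2) for MT-ATP8 and 0.11 (MRM2) for MT-ATP6, the MT-ATP6 first-nucleotide difference 0.0045, 0.0067 and -0.0124 points (MRM1, MRM2, MRM3), and the fragment length difference -0.045 for MT-ATP6 (MRM2), with 3 length calls in MRM3. Without overlap-start reads the ratio difference between dNTP levels was 0.24.

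For reads at 500 µM, total reads gave MT-ATP8 0.084 (MRM1) and 0.89 (MRM2), MT-ATP6 0.18 (MRM2) and 20 calls in MRM2. The 13 mRNAs alone, a setting added after the data were seen, gave MT-ATP8 0.34, 0.55 and 0.28, with 1, 11 and 8 calls in MRM1, MRM2 and MRM3. The 6 libraries alone gave MT-ATP8 0.011 (MRM1) and 0.73 (MRM3), MT-ATP6 -0.60 (MRM2), and 1 and 10 calls in MRM1 and MRM2. The TMM counts of calls were 0, 5 and 15.

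For reads at 2 µM (0, 7 and 6 calls), the 13 mRNAs gave 1 call in MRM1, 11 in MRM3 and 0.27 for MT-ATP6 in MRM3. The 6 libraries gave 1 call in MRM1 and 3 in MRM3, leaving out the rRNAs gave 2 in MRM2, and total reads gave MT-ATP8 1.22 and MT-ATP6 1.12 in MRM3.

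Between dNTP levels (23, 23, 28 and 24 calls in MRM1, MRM2, MRM3 and parental cells), MRM1 MT-ATP8 was 0.58 with total reads, 0.71 without overlap-start reads, 0.40 with DESeq2 and 0.74 with the 13 mRNAs, and MRM1 MT-ATP6 was 0.61, 0.90, 0.42 and 0.77 in that order and 0.43 without the rRNAs. The 13 mRNAs gave MT-ATP8 0.79 and MT-ATP6 0.70 in MRM2, MT-ATP6 0.72 in MRM3 and 0.71 in parental cells, and 9, 7, 9 and 7 calls. Total reads gave MT-ATP6 0.51 in MRM3 and 0.60 in parental cells, and leaving out overlap-start reads gave MT-ATP8 0.39 in MRM3.

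Replicate numbers of different lines did not pair: 8 of 18 pairs of samples at 500 µM and 7 of 18 at 2 µM had a correlation of deviations over 0.1. With the replicate block between lines, MRM2 calls at 2 µM were 1, and no other call of a member changed. Between dNTP levels, no replicate block gave 0.62 for MT-ATP8 in MRM3 and 13 and 15 calls in MRM1 and parental cells.

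Member positions with a score other than 1 (382, 351, 396 and 381) were 230, 206, 217 and 207 at a coverage of 200, where 423 positions were tested in place of 714. These were 54.4%, 48.7%, 51.3% and 48.9% of those tested, against 53.5%, 49.2%, 55.5% and 53.4%. Over all positions 4004, 3689, 3810 and 3954 of 5966 passed at a coverage of 200, against 6383, 5817, 6414 and 6911 of 11971. With edgeR 246 and 202 member positions passed in MRM1 and MRM2, beside 5243 and 4458 of all 11971. With 0.1 added 256 and 230 member positions passed in MRM3 and parental cells, beside 5128 and 4968 of all 11971. Between MRM3 knock-out and parental cells edgeR called 1.

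Leaving out 1 plate gave a ratio difference of -0.086 to 0.26 in MRM3, MT-ATP6 overlap differences of -0.11 to 0.018 in MRM1 and -0.072 to 0.062 in MRM3, and MT-ATP6 first-nucleotide differences of -0.132 to 0.0067, -0.0834 to 0.0582 and -0.097 to 0.093 points in MRM1, MRM2 and MRM3. MRM2 calls at 500 µM were 3 to 9. Length calls were 0 to 3, 0 to 31 and 0 to 2 in MRM1, MRM2 and MRM3, with differences of 0.13 to 0.32 (MT-ATP8) and 0.15 to 0.24 (MT-ATP6) in MRM2 and -0.033 to 0.16 (MT-ATP8) in MRM3. At 2 µM, calls were 0 to 9 in MRM2 and 0 to 12 in MRM3, where MT-ATP8 was at 1.09 to 1.48 and MT-ATP6 at 0.78 to 1.35. Between dNTP levels MT-ATP8 was at 0.79 to 0.96 and MT-ATP6 at 0.80 to 0.98 in MRM1, MT-ATP8 at 0.51 to 0.92 in MRM3, and parental calls were 14 to 20.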
